A study of Homo sapiens with 54 samples.

Results

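A549, a lung adenocarcinoma cell line, was examined after simultaneous knockdown of the paralogs TRA2A and TRA2B by CRISPRi (TRA2A/B DKD) against cells with control guides (Control KD). The comparison used 6 of the 54 RNA-seq libraries of the study, 3 with TRA2A/B DKD and 3 with Control KD, chosen by the labels of cell line and knockdown. Of the 55906 gene names in the A549 table, 16405 had at least 1 TPM in at least 4 of the 12 A549 libraries and were tested, and 12494 of these were protein-coding. TPM is the share of a gene's transcripts in its own library, corrected for transcript length and put on 1 scale for all libraries, so a value says nothing of the amount of RNA per cell. The remaining A549 libraries, 3 of TRA2A KD and 3 of TRA2B KD, and the NCI-H23 libraries of a second lung adenocarcinoma cell line served to show where the double knockdown differed. The single-knockdown libraries also entered the gene filter, the scaling and the estimate of spread, and a fit of the 2 compared groups alone called 1555 genes, against 2099 here.

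All 12 A549 libraries came from a stable Zim3-dCas9 line. Zim3-dCas9 joins a Cas9 that cannot cut DNA to a repressor domain and silences the promoter a guide directs it to. The population was enriched for dCas9 by sorting, and control cells carried it too. Guides against control loci, TRA2A, TRA2B or both genes were delivered by lentivirus, and cells were collected 5 days after transduction. A single cell line and a single time point limit the comparison, and CRISPRi lowers but does not remove the targeted transcript. The purpose of the double knockdown was to reveal what the paralogs do together when neither can stand in for the other.

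TRA2A and TRA2B are RNA-binding proteins with arginine- and serine-rich domains that bind GA-rich sequences in exons and promote the inclusion of those exons. Each can take over much of the work of the other, and loss of an exon that shifts the reading frame can expose a transcript to nonsense-mediated decay. Lung adenocarcinoma cells such as A549 rely on glycolysis, and the NRF2 antioxidant program is constitutively active in this cell line.

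The guides designed for CRISPRi of both genes are shown because their positions tell which promoters were silenced. In each line the 20-base guide is in lower case and the adjoining PAM, read from hg38, is in capitals.
TRA2A, first guide: agcctgcgaccgagtgggagTGG
TRA2A, second guide: cgctccactccactcccactCGG
TRA2B, first guide: ggaggcggtgcggagcatttCGG
TRA2B, second guide: cggagcatttcggctctgagCGG
The TRA2A guides lie at chr7:23531952-23531971 on the minus strand and chr7:23531940-23531959 on the plus strand, and the TRA2B guides lie at chr3:185937984-185938003 and chr3:185937974-185937993, both on the minus strand. All 4 lie in the first exon of their gene, in sequence that is not coding, with their centers 19.5 to 31.5 bases downstream of the annotated start site. The guides to each gene overlap each other. Which of them were used for the sequenced libraries is not given in the sources used here.

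Both targets fell in every TRA2A/B DKD library. TRA2A (ENSG00000164548.12, chr7:23504780-23532041, minus strand) was at 69.5, 79.4 and 76.3 TPM in the 3 control libraries and at 11.1, 10.3 and 9.75 TPM in the 3 TRA2A/B DKD libraries. The means were 75.1 ± 5.08 and 10.4 ± 0.693 TPM (SD, n = 3 each), so 13.9% of control remained (log2 fold change -2.92, SE 0.219, limma, Benjamini-Hochberg adjusted p = 5.95e-06). TRA2B (ENSG00000136527.19, chr3:185914558-185938103, minus strand) was at 138, 140.1 and 134 TPM in control and at 24.9, 16.9 and 25.4 TPM in TRA2A/B DKD, or 16.3% of control (log2 fold change -2.71, SE 0.146, adjusted p = 1.07e-06). Control and knockdown libraries did not overlap for either gene, and the exact permutation test gave a two-sided p of 0.1 for each, the smallest that 3 libraries against 3 allow. In the double knockdown, TRA2B was less depleted than in TRA2B KD alone (13.3 ± 0.856 TPM, SD, n = 3), with a log2 difference of 0.56 between them (adjusted p = 0.0179). For TRA2A the level in TRA2A KD alone was 7.18 ± 2.81 TPM, and the difference from the double knockdown did not pass the test (log2 difference 0.37, adjusted p = 0.24).

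Replicate 3 of the control stood apart from the other A549 libraries, with a median correlation across genes of 0.835 where every other A549 library had at least 0.871. Its TPM summed to 928908, and the other A549 libraries to at least 948593. It was kept, and calls that it decides are named beside the genes that were followed one by one. Genes named only to complete a group were not followed in this way, so some of their calls may rest on this library. The TRA2A/B DKD libraries had 16200 to 16708 genes with at least 1 TPM, more than the 15248 to 15491 of the control libraries. Mitochondrially encoded genes took 17.6% to 23.4% of TPM in TRA2A/B DKD and 18.0% to 21.6% in control. The epithelial markers EPCAM, KRT7, KRT8, KRT18, KRT19 and CDH1 summed to 9074 to 9294 TPM in control and 7803 to 7906 TPM in TRA2A/B DKD, with KRT7 the highest, while EPCAM was at only 2.76 TPM in control. Fibroblast, leukocyte and endothelial markers summed to at most 5.64 TPM in any of these libraries.

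A gene was called when its adjusted p was under 0.05 over all 16405 genes and its absolute log2 fold change was above 1, and in this text rose and fell are used only of called genes. By this rule 12.8% of the genes tested were called, 7.53% upward (1235 genes) and 5.27% downward (864 genes). Of the 12494 protein-coding genes, 6.27% were called upward and 5.85% downward, and these percentages are the background for the gene groups below. After quantile normalization the balance turned, with 1066 genes upward and 1212 downward, and in the TPM as deposited, where the median of all genes shifted to 0.11, it was 1435 and 708. The median log2 fold change was 0.03 over all genes and -0.03 over protein-coding genes. In bulk RNA, fewer cells that express a gene and less of its RNA per cell cannot be told apart.

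**Figure D1:**
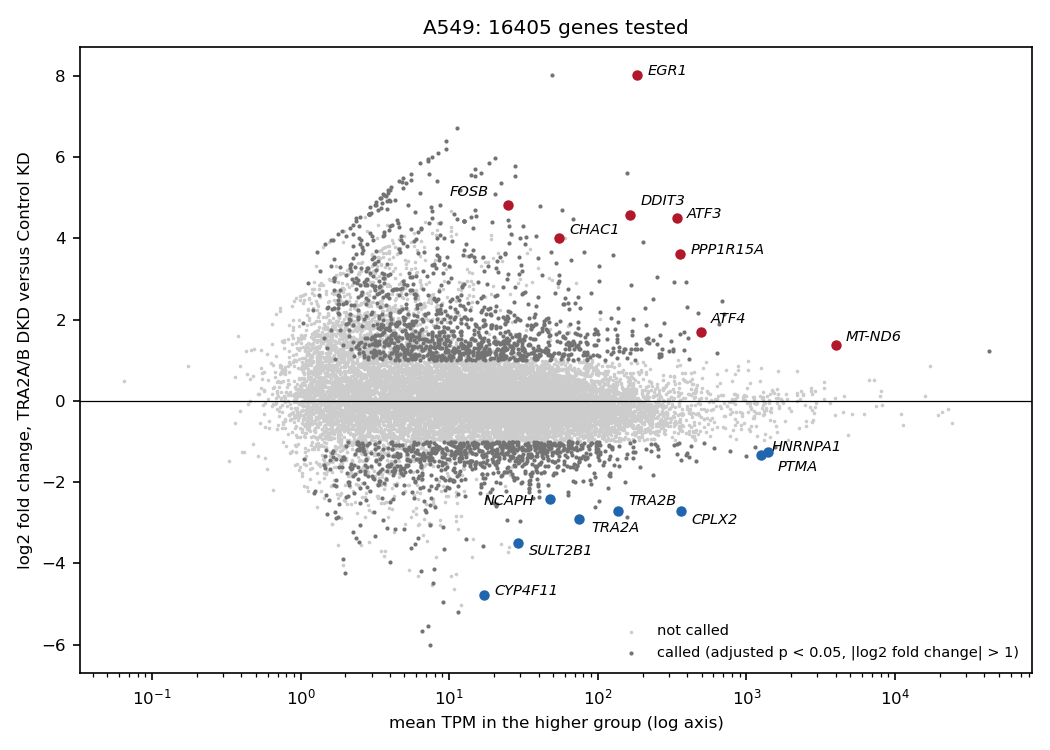
Each point is one of the 16405 genes tested in A549, by its mean TPM in the higher of the 2 groups (x, log axis) and its log2 fold change in TRA2A/B DKD against Control KD (y); darker gray points were called, and labelled points are genes that rose (red) or fell (blue). EGR1 is the highest labelled point at a log2 fold change of 8.003, and CYP4F11 is the lowest labelled point at -4.78.

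Among protein-coding genes with at least 10 TPM in the higher group, the 12 largest rises included the transcription factors EGR1, FOSB, DDIT3 and ATF3, which respond to stress or growth factors. EGR1 (chr5:138465479-138469303, plus strand), a zinc-finger transcription factor induced within minutes of growth-factor or stress signals, was at 0.474, 0.804 and 0.491 TPM in control and 176, 183 and 193 TPM in TRA2A/B DKD. Its log2 fold change of 8.003 (SE 0.224, adjusted p = 2.26e-08, limma) was the largest of these. DDIT3 (chr12:57516588-57521737, minus strand), which encodes the pro-apoptotic stress factor CHOP, was at 7.19, 8.60 and 4.23 TPM in control and 141, 154 and 200.1 TPM in TRA2A/B DKD (log2 fold change 4.57, SE 0.359, adjusted p = 7.85e-06). Every double-knockdown library was far above every control library for both genes, as in 23.8% of all genes tested the lowest of the 3 lay above the highest control. ATF3 (chr1:212565334-212620777, plus strand), a stress-induced member of the ATF/CREB family, rose from 15.5, 13.9 and 12.6 TPM to 308, 336 and 373 TPM, a 24.2-fold change of the mean. FOSB, a subunit of the AP-1 transcription factor, rose from 0.490, 0.854 and 0.947 TPM to 23.9, 25.04 and 26.1 TPM.

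Other large rises were in genes of varied function. FBXO44, the substrate receptor of a ubiquitin ligase, was at 0.796, 1.24 and 0.0348 TPM in control and 23.97, 28.2 and 30.4 TPM in TRA2A/B DKD (log2 fold change 5.52, adjusted p = 0.000159). Its level in TRA2B KD alone was already 22.2 ± 0.625 TPM (SD, n = 3), against 1.14 ± 0.424 TPM in TRA2A KD. SELPLG, the leukocyte ligand of P-selectin, rose from 0.345, 0.342 and 0.567 TPM to 23.4, 22.3 and 20.8 TPM, and the 5 leukocyte markers summed to 0.773 to 1.18 TPM in TRA2A/B DKD and 1.58 to 2.59 TPM in control, with 1 of them at 0 in every library. SLFN5, a member of the Schlafen family, rose from 0.822, 1.22 and 1.40 to 26.9, 24.6 and 24.7 TPM, and GUCA1B, a calcium-binding activator of guanylate cyclase best known from photoreceptors, from 0.808, 0.279 and 1.77 to 18.2, 21.5 and 18.04 TPM.

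Histone genes were among the 12 largest rises. HIST1H4H, which encodes histone H4, rose from 3.02, 4.42 and 1.59 TPM to 55.5, 72.8 and 76.05 TPM (log2 fold change 4.47). The H2A gene HIST2H2AA4 was at 17.8, 13.5 and 0 TPM in control and 131, 163 and 178 TPM in TRA2A/B DKD, and HIST3H2A was at 5.03, 4.32 and 0 TPM in control and 32.7, 42.9 and 47.2 TPM in TRA2A/B DKD. Both were listed at 0 in control replicate 3, and without it their log2 fold changes dropped from 5.60 to 3.18 and from 4.79 to 2.94. HIST2H2AA4 has a near-identical copy, so its reads cannot be assigned with certainty. Transcripts of replication-dependent histones normally end without a poly(A) tail, and these libraries were made from polyadenylated RNA. The readthrough transcript RNF103-CHMP3, which shares its exons with RNF103 and CHMP3, was at 1.16, 2.34 and 0 TPM in control and 17.6, 11.9 and 13.9 TPM in TRA2A/B DKD, and its call was lost without TRA2A/B DKD replicate 1 (adjusted p = 0.0543).

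By the same conditions the largest fall was that of CYP4F11 (chr19:15912367-15934867, minus strand), a cytochrome P450 that hydroxylates fatty acids and vitamin K. It was at 14.6, 15.7 and 21.3 TPM in control and 0.382, 0.781 and 0.544 TPM in TRA2A/B DKD, 3.31% of control (log2 fold change -4.78, SE 0.252, adjusted p = 1.04e-06, limma). TRA2A KD alone left it at 0.299 ± 0.0430 TPM and TRA2B KD alone at 12.7 ± 0.201 TPM (SD, n = 3 each), so the low level was already present with TRA2A KD. SULT2B1, a sulfotransferase for cholesterol and other sterols, was also lower in TRA2A KD, at 29.2, 35.5 and 22.9 TPM in control, 6.20 ± 0.207 TPM in TRA2A KD, 29.4 ± 0.515 TPM in TRA2B KD and 2.75, 1.94 and 3.27 TPM in TRA2A/B DKD (log2 fold change -3.49).

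Several genes best known from neurons, liver or gut were also among the 12 largest falls. CPLX2, a complexin that regulates vesicle fusion at synapses, was at 327, 275 and 484 TPM in control and 57.04, 62.3 and 50.98 TPM in TRA2A/B DKD (log2 fold change -2.71, SE 0.203). NTRK3, the receptor of neurotrophin-3, fell from 44.6, 43.9 and 31.9 TPM to 6.47, 8.28 and 9.54 TPM, and NPTX1, a neuronal pentraxin, from 17.3, 19.8 and 24.9 TPM to 3.403, 3.72 and 3.48 TPM. No double-knockdown library reached any control library for these genes, as in 17.7% of all genes tested. HNF4A, a nuclear receptor that directs liver and gut gene expression, was at 15.1, 14.04 and 33.4 TPM in control and 3.44, 3.67 and 3.10 TPM in TRA2A/B DKD, and the P2Y receptor gene P2RY6 fell from 11.4, 12.3 and 10.6 to 1.71, 3.08 and 2.55 TPM.

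The remaining large falls included a translation factor and proteins of mitosis. EIF5B, the initiation factor that joins the ribosomal subunits, was at 66.1, 68.1 and 154 TPM in control and 15.9, 15.1 and 14.97 TPM in TRA2A/B DKD, with control replicate 3 far above the other controls. Its log2 fold change was -2.60 (adjusted p = 8.99e-06) and -2.27 without that library. NCAPH (chr2:96335766-96377091, plus strand), the kleisin subunit of condensin I, fell from 50.4, 46.4 and 46.8 TPM to 8.29, 10.4 and 9.64 TPM. OIP5, which helps load the centromeric histone CENPA, fell from 10.9, 12.8 and 14.8 to 2.68, 2.22 and 2.91 TPM, and NLN, the peptidase neurolysin, from 55.8, 50.7 and 82.2 to 12.8, 13.1 and 12.8 TPM. C14orf105, whose function is not well described, fell from 22.2, 28.3 and 38.8 to 5.53, 2.09 and 4.84 TPM.

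Among abundant transcripts the changes were smaller in log2 terms but larger in TPM. PPP1R15A, also called GADD34, which directs the phosphatase that reverses eIF2alpha phosphorylation, was at 27.95, 36.1 and 20.9 TPM in control and 342, 354 and 371 TPM in TRA2A/B DKD (log2 fold change 3.60, adjusted p = 1.41e-06). MT-ND6, the complex I subunit encoded on the light strand of mitochondrial DNA, was at 1448, 1124 and 1785 TPM in control and 4986, 3802 and 3154 TPM in TRA2A/B DKD (log2 fold change 1.37), a call that was lost once trends with transcript length and GC content were removed. TNFRSF12A, the receptor of the cytokine TWEAK, was at 299, 391 and 154 TPM and 551, 615 and 740.5 TPM (log2 fold change 1.19). Its call was lost without control replicate 3 (0.74) and without TRA2A/B DKD replicate 2 or 3 (adjusted p = 0.0531 and 0.0693).

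The most abundant transcripts that fell included PTMA (prothymosin alpha), TUBB (a beta-tubulin) and HNRNPA1, a nuclear RNA-binding protein that represses splice sites. HNRNPA1 was at 1249, 1293 and 1205 TPM in control and 506, 524 and 548 TPM in TRA2A/B DKD, 42.1% of control (log2 fold change -1.33, SE 0.108, adjusted p = 9.85e-06). PTMA fell from 1388 ± 88.3 to 614 ± 6.63 TPM and TUBB from 987 ± 93.5 to 406 ± 6.83 TPM (SD, n = 3 each). All 3 have processed pseudogenes to which kallisto can divide their reads. S100A4, a calcium-binding protein linked to cell motility, was at 1710.4, 1859.6 and 1133 TPM in control and 698, 715 and 816 TPM in TRA2A/B DKD, and its call was lost without control replicate 1 or 2 (log2 fold changes -0.99 and -0.95).

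Gene groups were compared by the number of members called and by their median log2 fold change, against the 6.27% of protein-coding genes called upward and the 5.85% called downward. The groups and their members were chosen with earlier results of these data known, so the counts are descriptive and no group was tested. The groups with the highest medians were the ATF4 amino acid response (1.26), immediate early genes (1.17), ERK feedback genes (0.80) and inflammatory cytokines with NF-kB targets (0.66). The lowest were cohesin and condensin (-1.01), DNA repair and checkpoint (-0.62), glycolysis (-0.60) and integrins, laminins and collagens (-0.59). Genes of the S phase, G2/M and p53 lists were left out of every group.

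**Figure D2:**
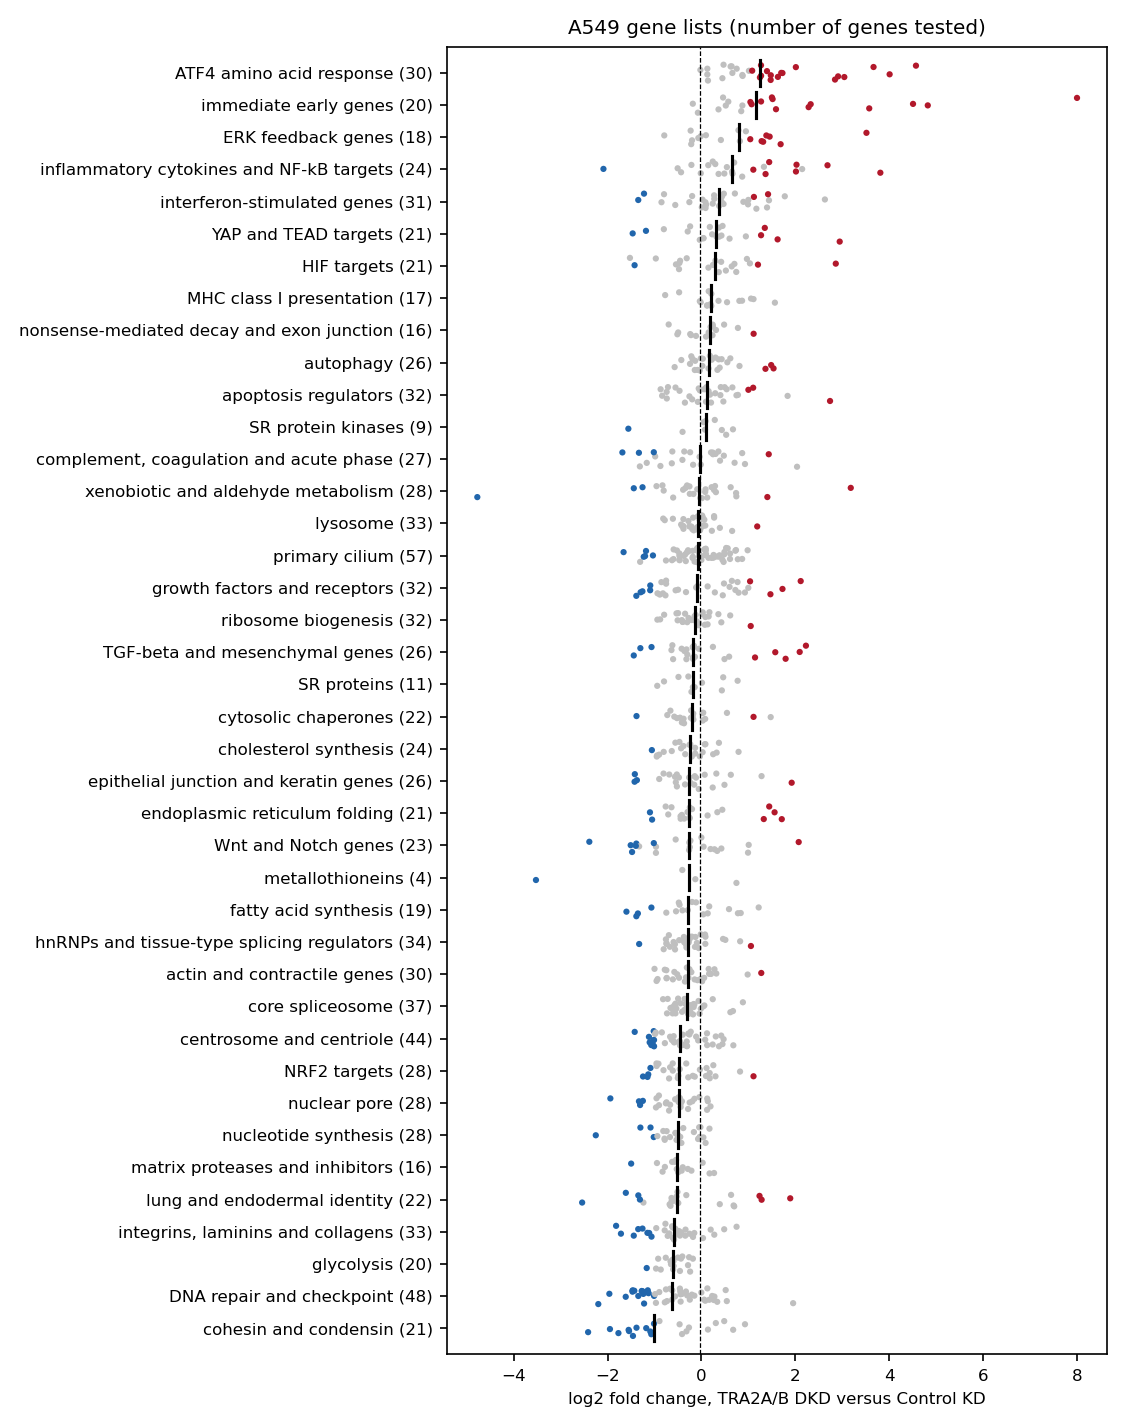
Each row is one of the 40 gene groups, ordered by median, with the number of genes tested in parentheses; each point is a gene's log2 fold change in A549 TRA2A/B DKD against Control KD (x), red where it rose, blue where it fell and gray where it was not called, black bars are group medians and the dashed line is the median of all protein-coding genes tested. Red points are concentrated in the 4 top rows and blue points in the rows of cohesin and condensin and of DNA repair.

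In the ATF4 amino acid response, 17 of 30 tested genes rose and 0 fell. ATF4 is translated when eIF2alpha is phosphorylated and activates genes for amino acid synthesis, uptake and tRNA charging. Without the minimum fold change, 25 of the 30 were higher at an adjusted p under 0.05, where 14.5% of protein-coding genes were. ATF4 itself was at 161, 198 and 91.6 TPM in control and 437, 501 and 542 TPM in TRA2A/B DKD (log2 fold change 1.70, SE 0.288, adjusted p = 0.00129, limma). Beside DDIT3, the largest rises were those of CHAC1, which degrades glutathione, from 2.45, 3.98 and 3.04 to 50.1, 51.6 and 61.9 TPM, and of the stress regulator NUPR1, from 5.04, 4.54 and 1.86 to 40.9, 50.4 and 54.8 TPM. The control libraries were below every double-knockdown library for all of them.

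Enzymes of amino acid synthesis and tRNA charging were among the genes that rose. ASNS, asparagine synthetase, rose from 40.6 to 323 TPM (log2 fold change 2.91), and TRIB3, a pseudokinase that restrains ATF4 signaling, from 28.7 to 251 TPM (3.04). In serine synthesis, PSAT1 rose from 106 to 312 TPM and PSPH from 39.8 to 88.00 TPM, and MTHFD2, of mitochondrial folate metabolism, rose from 90.5 to 252 TPM. The tRNA synthetase genes AARS, CARS, GARS and SARS rose with log2 fold changes of 1.27, 1.73, 1.25 and 1.27, whereas EPRS was at 74.7 and 85.1 TPM and was not called (0.13). The other called members were STC2, CEBPB, DDIT4 and CEBPG, with log2 fold changes from 1.48 to 2.85. Transporters were not called, at log2 fold changes of 0.14 for SLC7A5, 0.45 for SLC38A2, 0.75 for SLC3A2, 0.87 for SLC1A5 and 0.88 for SLC7A1. The number of members called ranged from 17 to 19 over the alternatives that kept the minimum fold change.

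Of 20 immediate early genes, which are transcribed without new protein synthesis once signals such as ERK or p38 reach the nucleus, 12 rose and 0 fell. Beside EGR1, FOSB and ATF3, JUN rose from 26.9 to 137 TPM, KLF4 from 7.16 to 38.4 TPM and FOS from 1.19 to 13.97 TPM (mean, n = 3 each). The remaining called members were BTG1, IER2, NR4A2, CYR61, NR4A1 and ZFP36, with log2 fold changes between 1.04 and 1.59. JUNB and FOSL2 were not called, at 0.36 and -0.18. Between 8 and 13 members rose over the alternatives that kept the minimum fold change, with the lowest count at a minimum of 5 TPM and 10 without control replicate 3.

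The genes listed as ERK feedback genes are induced by the ERK kinases, and some of them, such as DUSP phosphatases, damp the same pathway. Of 18 tested, 7 rose and 0 fell. MAFF, a small MAF transcription factor, was at 3.31, 3.98 and 2.38 TPM in control and 39.7, 39.1 and 39.2 TPM in TRA2A/B DKD (log2 fold change 3.52, adjusted p = 2.63e-06). DUSP5, a nuclear phosphatase of ERK, rose from 19.5, 20.2 and 17.8 to 50.9, 56.4 and 59.8 TPM. DUSP6, its cytoplasmic counterpart, was at 4.40, 5.997 and 1.48 TPM in control and 11.4, 13.6 and 10.8 TPM in TRA2A/B DKD, with a log2 fold change of 1.69 that was 1.05 without control replicate 3 and lost its call without TRA2A/B DKD replicate 2 (adjusted p = 0.0601). FOSL1, SPRY1, SPRY4 and ETV5 rose too, and DUSP4 and CCND1 were not called, at -0.23 and -0.20. Between 5 and 9 members of the list rose over the same alternatives. DUSP1, a phosphatase of stress-activated kinases outside this list, rose from 107, 120.1 and 97.3 to 346, 351 and 367 TPM.

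**Figure D3:**
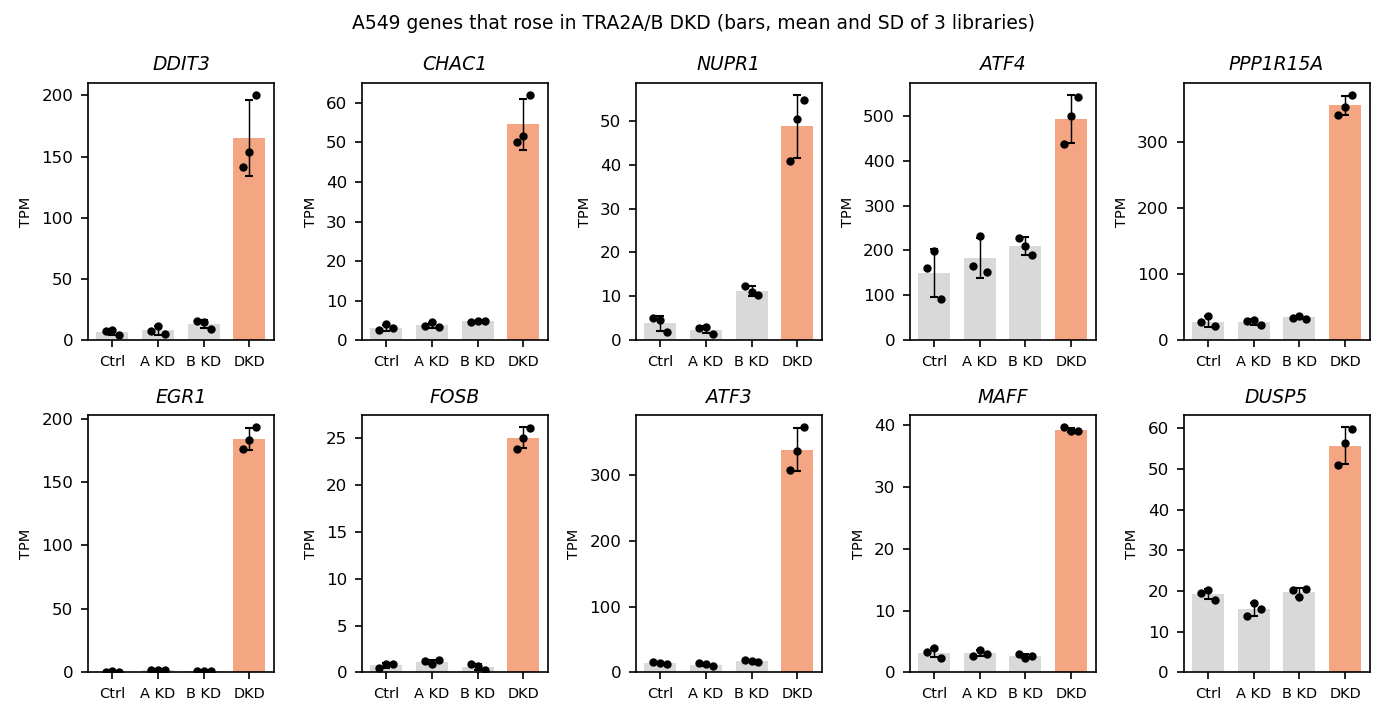
TPM of 10 genes that rose (y, linear from 0) in the 12 A549 libraries by condition (x): control, TRA2A KD (A KD), TRA2B KD (B KD) and TRA2A/B DKD; bars are means, whiskers SD of 3 libraries and points libraries. In each panel the 3 double-knockdown points lie above the other 9.

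Inflammatory cytokines and NF-kB targets had 7 genes that rose and 1 that fell among 24. TNFAIP3 (A20), an NF-kB target that shuts the pathway off, was at 5.25, 5.24 and 3.55 TPM in control and 32.9, 35.9 and 27.6 TPM in TRA2A/B DKD (log2 fold change 2.69, adjusted p = 4.59e-05). CXCL8, the neutrophil chemokine interleukin-8, rose from 7.48, 8.24 and 8.05 to 31.99, 31.4 and 40.5 TPM, and CXCL2, NFKB2, RELB and BIRC3 rose with log2 fold changes between 1.11 and 2.01. IL6 stayed low, at 2.62, 0.0319 and 0 TPM in control and 3.48, 5.42 and 6.70 TPM in TRA2A/B DKD, and lost its call without TRA2A/B DKD replicate 3 (adjusted p = 0.0527). The member that fell was IL32, a proinflammatory cytokine gene, from 40.7, 47.4 and 30.4 to 10.4, 8.12 and 10.4 TPM, and it was at 6.39 ± 1.70 TPM in TRA2A KD and 43.4 ± 1.97 TPM in TRA2B KD (SD, n = 3 each). Between 5 and 8 members rose over the alternatives that kept the minimum fold change. NFKBIA, which encodes the inhibitor IkBalpha, was not called (0.65, adjusted p = 0.0706).

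Of 21 stress genes of the endoplasmic reticulum, 4 rose (19.0%) and 2 fell (9.52%). Among protein-coding genes 6.27% rose and 5.85% fell, so the falls were near the background. Between 1 and 2 members fell over the alternatives that kept the minimum fold change. The sensor ERN1 (IRE1) rose from 4.56, 4.71 and 6.06 to 14.3, 17.9 and 16.01 TPM, its target XBP1 from 23.5, 28.97 and 33.3 to 94.7, 98.4 and 102 TPM, and HERPUD1, of protein disposal, from 44.9, 42.8 and 53.8 to 134, 123 and 149 TPM, with DNAJB9 the other gene that rose (1.33). The chaperone DNAJB11 fell from 44.7, 47.00 and 38.4 to 21.3, 19.2 and 23.6 TPM, and HSPA5 (BiP), the main chaperone of the compartment, was at 158 and 211 TPM and was not called (0.34, adjusted p = 0.0659). PDIA4, a disulfide isomerase, was at 27.2, 18.7 and 26.4 TPM in control and 10.9, 10.8 and 14.9 TPM in TRA2A/B DKD, a call that was lost without control replicate 1 (-0.89) and without TRA2A/B DKD replicate 1 or 2 (-0.96 and -0.98).

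In autophagy, 3 of 26 genes rose and 0 fell, and all 3 encode proteins that coat or bind the autophagosome membrane. MAP1LC3B (LC3B) rose from 35.3, 37.00 and 30.2 to 96.4, 102 and 104 TPM (log2 fold change 1.49), GABARAPL1 from 22.9, 18.2 and 17.8 to 56.9, 63.1 and 60.1 TPM and the cargo receptor NBR1 from 32.8, 30.2 and 45.3 to 101, 99.8 and 90.5 TPM. Among 33 lysosome genes, the sialidase gene NEU1 was the only one called, at 9.16, 10.02 and 4.31 TPM in control and 18.03, 16.9 and 18.7 TPM in TRA2A/B DKD, and the call was lost without control replicate 3 (0.74).

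Of 32 apoptosis regulators, 3 rose and 0 fell. PMAIP1 (NOXA), a BH3-only protein that neutralizes MCL1, was at 10.5, 9.45 and 6.70 TPM in control and 62.7, 55.7 and 69.5 TPM in TRA2A/B DKD (log2 fold change 2.74, adjusted p = 7.73e-06). BIRC2 (cIAP1), a ubiquitin ligase that inhibits death signaling, rose from 23.01, 19.3 and 22.6 to 47.3, 47.5 and 52.6 TPM. BCL2L2 (BCL-W), an antiapoptotic protein, was at 14.1, 24.00 and 10.9 TPM and 32.4, 29.1 and 37.5 TPM, a call that was lost without control replicate 1 or 3 (0.99 and 0.68) and TRA2A/B DKD replicate 3 (0.92). MCL1 and BCL2L1 were not called, at 0.75 and 0.10.

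Chromosome structure genes were the group with the lowest median. Of 22 cohesin and condensin genes, the S phase, G2/M and p53 lists removed 1. Among the 21 tested, 11 fell and 0 rose, and whether these falls are separate from the cell cycle was not tested. SMC2, the core ATPase of both condensins, was at 26.1, 28.3 and 49.9 TPM in control and 10.1, 9.10 and 7.94 TPM in TRA2A/B DKD (log2 fold change -1.95, adjusted p = 1.82e-05). NCAPG2, of condensin II, fell from 37.96, 37.4 and 49.8 to 12.1, 13.7 and 12.6 TPM, and NCAPG, NCAPD3, SMC1A, PDS5B, ESCO2, CDCA5, SGO1 and SGO2 fell with log2 fold changes between -1.55 and -1.01. The cohesin release factor WAPL and the acetyltransferase ESCO1 were not called and lay above 0, at 0.68 and 0.93. Between 9 and 11 members fell over the alternatives that kept the minimum fold change.

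DNA repair and checkpoint genes followed, with 16 of 48 that fell and 0 that rose. ETAA1, which activates the ATR kinase at stalled forks, was at 6.06, 6.64 and 9.28 TPM in control and 2.05, 1.41 and 1.35 TPM in TRA2A/B DKD (log2 fold change -2.20, SE 0.215, adjusted p = 3.45e-05). POLQ, the polymerase of end joining by microhomology, fell from 7.67, 8.33 and 16.2 to 2.64, 2.75 and 2.61 TPM, and FANCA, of the Fanconi anemia core complex, from 54.1, 56.3 and 107 to 25.9, 21.8 and 23.5 TPM. Control replicate 3 was the highest library for these genes. The Fanconi genes FANCD2, FANCG and FANCI also fell, at -1.47, -1.46 and -1.34, as did BARD1, RAD54L, XRCC2, XRCC3, EME1, TIMELESS, MRE11A, RAD9A, RAD18 and H2AFX. The apical kinase genes ATM and ATR were not called, at 0.06 and -0.56. Between 15 and 17 members fell over the alternatives that kept the minimum fold change.

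Centrosome and centriole genes had 9 of 44 that fell, most of them at log2 fold changes close to the threshold of -1. HAUS8, an augmin subunit that nucleates spindle microtubules, was at 16.3, 16.98 and 24.9 TPM in control and 5.91, 7.73 and 9.03 TPM in TRA2A/B DKD (-1.42). CENPJ, which sets the length of centrioles, was at 12.2, 15.97 and 27.3 and 10.3, 6.25 and 9.35 TPM, and its call was lost without control replicate 3 (-0.87) or TRA2A/B DKD replicate 2 (-0.91). The count was 6 without control replicate 3, 5 without TRA2A/B DKD replicate 2 and 3 in the TPM as deposited. Of 57 primary cilium genes 5 fell, led by TCTN2 of the transition zone, from 8.32, 8.46 and 15.3 to 3.76, 3.37 and 2.99 TPM, and the count was 3 without control replicate 3 or TRA2A/B DKD replicate 2. IFT172, of intraflagellar transport, and OFD1, of the basal body, were called at -1.20 and -1.23 but not without control replicate 3 (-0.68 and -0.83), IFT172 also not without TRA2A/B DKD replicate 1 or 2 (adjusted p = 0.0833 and 0.0902).

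The nuclear pore and nucleotide synthesis groups each had 4 of 28 genes that fell and none that rose. TPR, the nuclear basket protein, was at 57.6, 61.4 and 149 TPM in control and 26.95, 18.1 and 22.2 TPM in TRA2A/B DKD (log2 fold change -1.94, -1.57 without control replicate 3). NUP210 fell from 39.6, 39.1 and 68.2 to 21.7, 20.1 and 17.8 TPM, NUP88 from 108, 85.3 and 115 to 36.7, 50.1 and 44.5 TPM, and NUP50 had a log2 fold change of -1.25. Without control replicate 2, 7 pore genes fell. CTPS2, which makes CTP, was at 22.2, 14.3 and 19.5 TPM in control and 4.40, 3.68 and 3.93 TPM in TRA2A/B DKD (-2.25), and SHMT1, of cytosolic folate metabolism, fell from 38.95, 48.2 and 38.5 to 16.9, 18.8 and 17.8 TPM. The others were CAD, of pyrimidine synthesis, at -1.02, and PRPS2, at -1.08 and at -0.80 without control replicate 3 and -0.93 without TRA2A/B DKD replicate 1, where it was not called.

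**Figure D4:**
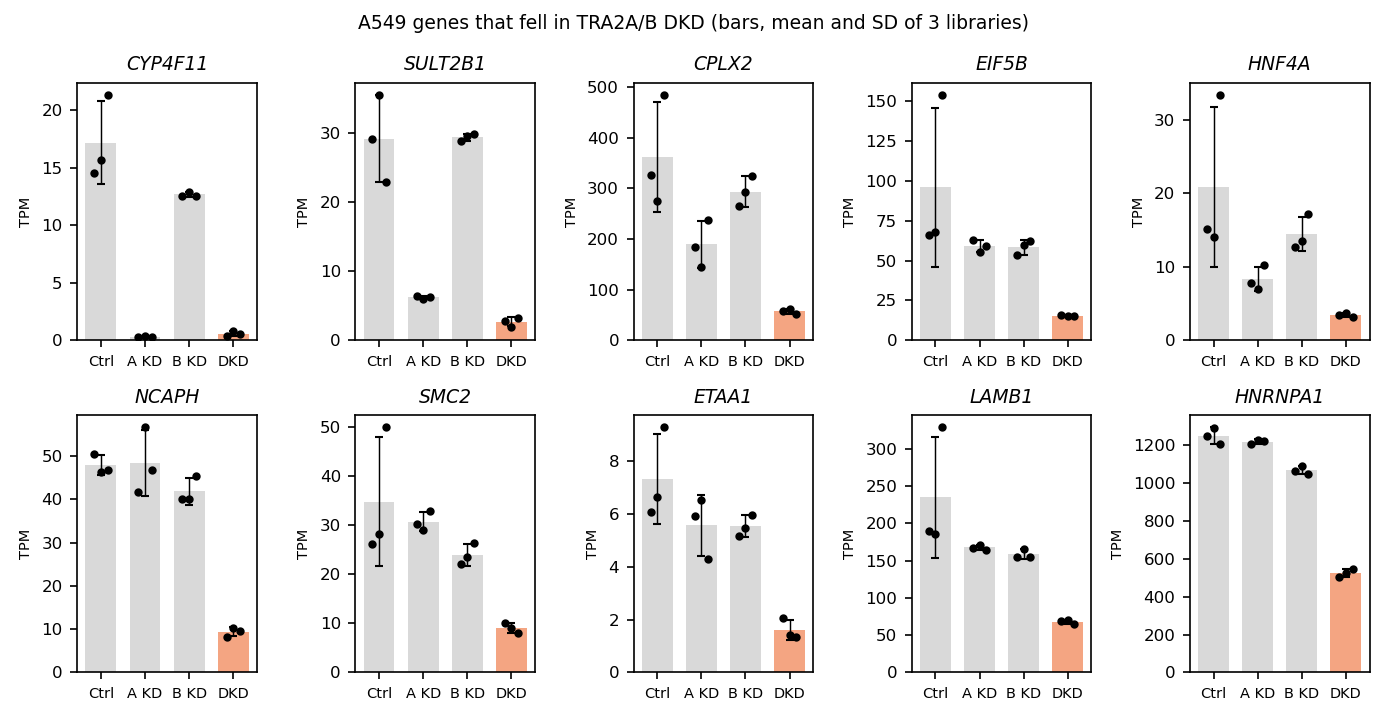
TPM of 10 genes that fell (y, linear from 0) in the 12 A549 libraries by condition (x), drawn as in the plot of genes that rose; bars are means, whiskers SD of 3 libraries and points libraries. CYP4F11 is near the axis in both TRA2A KD and TRA2A/B DKD, and the high control point of EIF5B, HNF4A, SMC2 and LAMB1 is replicate 3.

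Most glycolysis genes lay below 0 without passing the fold threshold. Only ENO2, neuronal enolase, fell among 20, from 41.8, 47.9 and 41.2 to 18.99, 18.9 and 23.8 TPM, but 16 of the 20 were lower at an adjusted p under 0.05 without the minimum fold change, where 19.9% of protein-coding genes were. Without control replicate 3, 2 of them fell. LDHA was at 1315 and 709.8 TPM (log2 fold change -0.97), PKM at 2512 and 1734 TPM (-0.61) and GAPDH at 4474 and 3930.4 TPM (-0.26, adjusted p = 0.218).

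Of 19 fatty acid synthesis genes 4 fell. SCD, the stearoyl-CoA desaturase, was at 112, 105 and 201 TPM in control and 49.2, 47.2 and 43.2 TPM in TRA2A/B DKD (log2 fold change -1.60, adjusted p = 3.05e-05). ACLY, which makes cytosolic acetyl-CoA, fell from 363, 339 and 535 to 169, 159.6 and 161 TPM, FADS2 from 224, 212 and 329 to 107, 105 and 98.6 TPM, and FASN had a log2 fold change of -1.07. Of 24 cholesterol synthesis genes 1 fell and 0 rose, and 2 fell without control replicate 2 or TRA2A/B DKD replicate 2.

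Of 28 NRF2 targets 1 rose and 4 fell. TKT, the transketolase of the pentose phosphate pathway, was at 1139, 1132 and 1137 TPM in control and 539, 565 and 538 TPM in TRA2A/B DKD, and PGD, of the oxidative branch, at 735, 684 and 919 and 350.4, 356 and 328 TPM (log2 fold changes -1.13 and -1.24). The call of TKT was lost once trends with transcript length and GC content were removed. GCLC, the rate-limiting enzyme of glutathione synthesis, and PIR also fell, at -1.09 and -1.15. HMOX1, heme oxygenase 1, was the one that rose, from 113, 126 and 109.7 to 245, 262 and 289.5 TPM, at a log2 fold change of 1.11 that was 1.000 and no longer called without control replicate 3. The abundant targets NQO1 and TXNRD1 were not called, at 0.18 and -0.03.

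In xenobiotic and aldehyde metabolism, 2 of 28 genes rose and 3 fell. Both risers are targets of the aryl hydrocarbon receptor. CYP1A1 was at 1.43, 1.73 and 1.99 TPM in control and 16.5, 17.2 and 17.9 TPM in TRA2A/B DKD (log2 fold change 3.18, adjusted p = 4.21e-06), and TIPARP rose from 27.1, 27.3 and 37.2 to 87.8, 83.96 and 82.5 TPM. Beside CYP4F11, its neighbor in family CYP4F3 fell from 10.1, 8.34 and 8.32 to 3.63, 3.89 and 4.10 TPM and the fatty aldehyde dehydrogenase ALDH3A2 from 102, 129 and 125 to 46.5, 42.03 and 49.4 TPM. CYP4F11 and CYP4F3 are close paralogs, between which reads can be divided.

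Of 21 HIF targets 2 rose and 1 fell, and without control replicate 3 it was 1 and 3. MXI1, a MYC antagonist, was at 0.882, 3.54 and 1.15 TPM in control and 12.8, 13.3 and 11.7 TPM in TRA2A/B DKD, and the oxygen-sensing hydroxylase EGLN3 at 5.96, 3.398 and 8.88 and 1.98, 2.19 and 2.31 TPM. VEGFA, at 19.8, 21.1 and 13.8 and 37.2, 46.2 and 48.9 TPM, was called (1.20) but not without control replicate 3 (0.95). MYC itself was at 73.1, 83.6 and 60.96 TPM in control and 148, 159 and 166 TPM in TRA2A/B DKD (1.05, and 0.86 without that library, where it was not called), the only call among 32 genes of ribosome biogenesis.

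Of 33 integrin, laminin and collagen genes 8 fell and 0 rose, and 4 fell without control replicate 3. LAMB1, the beta1 chain of laminin, was at 190.5, 186 and 329 TPM in control and 68.9, 69.9 and 64.7 TPM in TRA2A/B DKD (log2 fold change -1.82, -1.62 without control replicate 3). COL5A1 fell from 73.7, 71.7 and 101 to 35.8, 29.3 and 29.7 TPM, and ITGB6, the beta chain of the integrin that activates latent TGF-beta in epithelia, from 5.02, 5.52 and 5.82 to 0.907, 2.50 and 2.04 TPM. The others were COL18A1, COL6A1, LAMA5, ITGB3 and COL1A1.

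In the list of TGF-beta and mesenchymal genes, 5 of 26 rose and 3 fell. The transcription factors TWIST1, ZEB2 and SNAI2 were among those that rose, and SPARC, COL1A1 and COL5A1, all of the matrix, were those that fell. TWIST1 was at 1.76, 1.63 and 1.28 TPM in control and 6.53, 11.5 and 6.90 TPM in TRA2A/B DKD and ZEB2 at 3.05, 3.50 and 6.75 and 20.6, 13.6 and 13.3 TPM, with log2 fold changes of 2.23 and 1.79. SNAI2 and SKIL rose by 1.57 and 1.14, and INHBA, an activin subunit, by 2.09, a call that was lost without control replicate 1 or 2 (adjusted p = 0.0673 and 0.0986). It did not pass the filter on low TPM when any other of the compared libraries was left out. SPARC, which binds collagen, fell from 30.7, 36.2 and 37.9 to 16.3, 10.9 and 18.4 TPM. COL1A1 was at 10.7, 7.94 and 16.8 and 5.42, 5.32 and 6.20 TPM and lost its call without control replicate 3 (-0.85). The count of genes that rose was 3 without control replicate 1 or 2 or TRA2A/B DKD replicate 1 or 2.

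Among 26 epithelial junction and keratin genes 1 rose and 3 fell. CDH1, E-cadherin, was at 20.4, 19.5 and 25.2 TPM in control and 8.26, 7.95 and 10.1 TPM in TRA2A/B DKD (log2 fold change -1.38, adjusted p = 7.74e-05), and EPCAM fell from 2.78, 2.45 and 3.06 to 0.849, 0.871 and 1.42 TPM. KRT19, a keratin of simple epithelia, rose from 5.37, 5.61 and 6.58 to 23.1, 26.7 and 21.4 TPM, and its level in TRA2B KD alone was 21.1 ± 1.59 TPM against 7.06 ± 3.15 TPM in TRA2A KD (SD, n = 3 each). CGN, cingulin of tight junctions, was at 3.51, 3.95 and 11.6 TPM in control and 1.69, 2.88 and 1.83 TPM in TRA2A/B DKD, and was not called without control replicate 3 (-0.96).

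The lung and endodermal list had 3 that rose and 4 that fell of 22. GATA6, an endodermal transcription factor, rose from 3.32, 2.72 and 3.66 to 12.9, 13.5 and 12.3 TPM and was the only one to rise without control replicate 3, where ID1 (1.28) stood at 0.88 and NAPSA (1.24) at 0.84. NAPSA, which encodes the lung protease napsin A, also lost its call without each TRA2A/B DKD replicate. Beside HNF4A and MUC5B, the adhesion protein CEACAM5 fell from 6.25, 6.57 and 7.58 to 3.74, 1.70 and 3.26 TPM. The mucin gene MUC1 was at 10.2, 8.85 and 22.2 TPM in control and 7.03, 1.85 and 5.97 TPM in TRA2A/B DKD (-1.61), a call that was lost without control replicate 3 (adjusted p = 0.0561) or TRA2A/B DKD replicate 2 (-1.03, adjusted p = 0.0538).

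YAP and TEAD targets had 4 genes that rose and 2 that fell among 21. ANKRD1 was at 13.7, 12.7 and 11.01 TPM in control and 101, 102 and 102 TPM in TRA2A/B DKD (log2 fold change 2.95, adjusted p = 1.04e-06), CTGF (now CCN2) at 42.6, 46.2 and 35.04 and 140.4, 125 and 136 TPM, and LATS2, a kinase that inhibits YAP, at 8.13, 8.99 and 11.5 and 27.8, 25.7 and 23.4 TPM. CCDC80, a secreted matrix protein, fell from 87.04, 88.6 and 132 to 41.3, 38.6 and 35.6 TPM. MYOF, a ferlin of membrane repair, was called (-1.18) but not without control replicate 3 (-0.99), which left CCDC80 as the only one to fall.

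Among 32 growth factors and receptors, 4 rose and 5 fell. HBEGF, a ligand of EGFR, was at 5.76, 5.24 and 6.59 TPM in control and 25.6, 27.1 and 28.7 TPM in TRA2A/B DKD (log2 fold change 2.12, adjusted p = 2.36e-06), and IGFBP1, a secreted binder of insulin-like growth factors, rose from 8.51, 8.77 and 12.8 to 29.4, 26.1 and 31.8 TPM. FGFR4 fell from 32.3, 34.05 and 28.05 to 13.7, 12.3 and 14.3 TPM and the collagen receptor DDR1 from 38.3, 39.2 and 51.3 to 21.04, 17.2 and 18.2 TPM. IGFBP5 and AREG rose too, at 1.73 and 1.04, and ERBB2 and PDGFB fell, both at -1.09. IGFBP6 fell from 114, 119 and 66.7 to 38.7, 43.98 and 34.98 TPM, and was at 32.2 ± 0.682 TPM in TRA2A KD and 105 ± 7.56 TPM in TRA2B KD (SD, n = 3 each).

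Of 23 Wnt and Notch genes 6 fell and 1 rose, and 3 rose without control replicate 1 or 2. RNF43, a ligase that removes Wnt receptors and is itself a Wnt target, was at 6.92, 3.59 and 6.88 TPM in control and 1.23, 1.08 and 0.831 TPM in TRA2A/B DKD (log2 fold change -2.39). The receptor FZD2 fell from 31.1, 32.7 and 24.7 to 10.8, 10.2 and 11.4 TPM and the transcription factor TCF7 from 8.35, 7.17 and 8.36 to 3.20, 3.28 and 2.42 TPM, with AXIN2, JAG2 and NOTCH3 at -1.39, -1.40 and -1.01. The ligand WNT9A rose from 2.65, 2.13 and 1.82 to 11.2, 9.63 and 9.37 TPM.

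Of 31 interferon-stimulated genes 2 rose and 2 fell. OAS3, an RNA sensor, fell from 33.4, 35.5 and 58.1 to 16.99, 18.2 and 15.9 TPM, while IRF7, a transcription factor of interferon genes, rose from 3.79, 4.29 and 1.93 to 8.26, 8.97 and 10.3 TPM. IFI6 was called (1.12) but not without control replicate 3 or TRA2A/B DKD replicate 3 (0.86 and 0.99). None of 17 genes of MHC class I presentation was called, with B2M at 0.81 (adjusted p = 0.0513), but 2 were called upward without control replicate 2. Of 27 genes of complement, coagulation and the acute phase, CD55, which protects cells from complement, rose from 34.2, 29.4 and 24.9 to 75.1, 95.1 and 82.2 TPM, FGB (fibrinogen beta) fell from 4.17, 2.62 and 7.76 to 1.99, 1.27 and 1.01 TPM, and PROS1 and C5 were called downward but not without TRA2A/B DKD replicate 2 (-0.98 and -0.85), C5 also not without control replicate 3 (-0.84). Without control replicate 2, 3 genes of this list rose and 5 fell.

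Of 11 SR proteins none was called. SRSF1 was closest, at 237, 238 and 242 TPM in control and 122, 132 and 142 TPM in TRA2A/B DKD (log2 fold change -0.94, adjusted p = 4.4e-05), and it was one of 2 SR proteins called without control replicate 3 (-1.003). None of 37 core spliceosome genes was called, with SNRPD2 at -0.24 and SNRPB at -0.30. Without the minimum fold change, 13 of the 37 were lower at an adjusted p under 0.05 and 2 higher, as were 12 and 3 of 34 hnRNPs and tissue-type splicing regulators and 3 and 2 of 11 SR proteins, where 19.9% of protein-coding genes were lower and 14.5% higher. Of 9 SR protein kinases, SRPK1 fell from 34.8, 35.3 and 50.01 to 14.6, 14.4 and 13.3 TPM (-1.56) while SRPK2 was at 0.09 and CLK3 at 0.28. HNRNPA1 was the only one of 34 hnRNPs and tissue-type splicing regulators that fell, and KHDRBS3, the only one called upward (1.05), lost its call without control replicate 2 or 3 or TRA2A/B DKD replicate 2 or 3. Of 16 genes of nonsense-mediated decay and the exon junction, UPF3B was called upward (1.11) but not without control replicate 3 (0.77).

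Few genes were called in the remaining groups. Of 22 cytosolic chaperones HSPB8 rose from 14.6, 14.4 and 14.1 to 33.2, 31.8 and 33.8 TPM and CHORDC1 fell from 77.8, 75.5 and 101 to 35.7, 33.4 and 32.8 TPM. MT1F, a metallothionein, fell from 5.34, 6.43 and 5.86 to 1.34, 0.0483 and 0.618 TPM, whereas the more abundant MT2A was at 667, 923 and 298 TPM in control and was not called (0.75, adjusted p = 0.165). ADAM19, a metalloprotease, was the only one of 16 matrix proteases and inhibitors called, from 9.28, 9.95 and 19.99 to 5.03, 4.64 and 3.96 TPM. MYL9, a myosin light chain, was the only one of 30 actin and contractile genes called, at 3.07, 3.59 and 1.88 TPM in control and 5.38, 8.78 and 7.87 TPM in TRA2A/B DKD, and not without control replicate 3 (0.94), where 2 others fell. Abundant members of the groups with few calls stayed within the threshold, with ACTG1 at -0.35, TMSB10 at -0.33, NPM1 at -0.26, NCL at -0.94, PSAP at 0.65, CD63 at 0.05, HMGCS1 at 0.32 and FDPS at -0.80.

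The double knockdown was also compared with each single knockdown, and a non-additive term was fitted as the double knockdown effect minus the sum of both single ones. Against TRA2A KD 11.3% of genes were called, 6.52% upward (1069) and 4.78% downward (784), and against TRA2B KD 8.64%, 4.48% upward (735) and 4.16% downward (683). These comparisons share the TRA2A/B DKD libraries with the comparison to control. The non-additive term was called in 7.72% of genes, 3.74% upward (614) and 3.98% downward (653). These splits depended on the scaling. In the TPM as deposited the median of all genes in the non-additive term shifted from -0.05 to 0.26, and 1082 genes were called upward and 297 downward. Against TRA2A KD the deposited TPM gave 1626 and 477 and quantile normalization 922 and 1064, and against TRA2B KD the deposited TPM gave 1000 and 434.

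Non-additive values were large for several of the stress and growth-factor genes. The term contains the change against control for which the genes of this paragraph were named, so its size is not independent of that choice. For EGR1 the term was 5.37 (adjusted p = 2.13e-05, limma), with 1.64 ± 0.154 TPM in TRA2A KD and 1.31 ± 0.131 TPM in TRA2B KD (SD, n = 3 each). ATF3, FOSB, MAFF and PPP1R15A had terms of 4.22, 4.49, 3.53 and 3.07, and DDIT3 and CHAC1 of 3.10 and 2.90, with the largest adjusted p at 0.00302. On the falling side, the terms were -2.74 for NPTX1, -2.64 for NTRK3, -2.46 for NCAPH and -2.04 for POLQ, with the largest adjusted p at 0.000928. Some genes were already changed in a single knockdown, and for several of them the term did not pass the test. It was -1.08 for FBXO44 (adjusted p = 0.488), -0.33 for KRT19 (0.579) and 0.85 for CYP4F11 (0.134). For IL32 it was 0.14 (0.82) and for IGFBP6 -0.15 (0.809). The term of SULT2B1, which was also lower in TRA2A KD, is not given here. For ATF4 the term was 0.59 (adjusted p = 0.365).

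NCI-H23 libraries of the same double knockdown are given beside A549 without a test between the cell lines, because their tables were normalized separately. In NCI-H23 7.08% of 16293 genes, protein-coding or not, were called upward and 5.74% downward. Of 11576 protein-coding genes tested in both cell lines, 540 were called upward and 682 downward there. The ATF4 amino acid response had 10 of 28 genes called upward and 0 downward there, cohesin and condensin 0 and 4 of 21, and DNA repair 0 and 7 of 48. Immediate early genes had 3 and 2 of 20, ERK feedback genes 0 and 1 of 18, and inflammatory cytokines with NF-kB targets 0 and 4 of 24. DDIT3 had a log2 fold change of 3.05 in NCI-H23 and 4.57 in A549, NCAPH of -2.04 and -2.41, FBXO44 of 4.40 and 5.52, and SLFN5 of 4.84 and 4.30.

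The starting levels of some genes differed between the cell lines. EGR1 was at 118, 139 and 129 TPM in NCI-H23 control libraries and 274, 258 and 299 TPM in NCI-H23 TRA2A/B DKD libraries (log2 fold change 0.95), where A549 controls were all below 1 TPM. HMOX1 was at 30.8, 35.5 and 38.2 TPM in NCI-H23 control and 898, 727 and 929 TPM in TRA2A/B DKD (4.45), against 1.11 in A549. TNFAIP3, MYL9 and BIRC2 rose in A549 and were lower in NCI-H23 TRA2A/B DKD than in its control, with log2 fold changes of -1.55, -1.23 and -0.40 (adjusted p = 8.25e-06, 2.88e-07 and 0.000687).

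**Figure D5:**
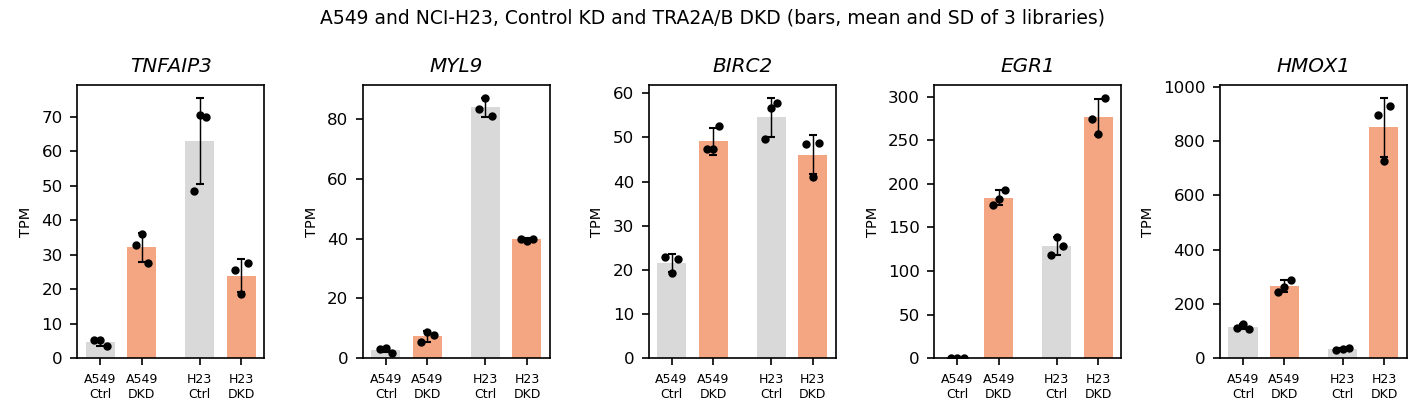
TPM of 5 genes (y, linear from 0) in Control KD (Ctrl) and TRA2A/B DKD of A549 and NCI-H23 (x, H23); bars are means, whiskers SD of 3 libraries and points libraries, and levels in different cell lines come from separately normalized tables. For TNFAIP3, MYL9 and BIRC2 the double-knockdown points lie above the control points in A549 and below them in NCI-H23, and for EGR1 and HMOX1 they lie above them in both.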

How the data were processed

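RNA-seq libraries were made from polyadenylated RNA and sequenced in paired reads of 150 bases. Per the study's methods and the submitters' processing notes, the authors quantified transcripts with kallisto v0.48.0 against Gencode v34 and deposited TPM summed per gene for each library, without pooling replicates. TPM keeps no read depth, so counting error is unknown, and reads of near-identical genes are divided by estimation. Labels do not say that the 3 libraries of a group came from separate cultures, so p-values measure the spread between libraries, which may be technical. No 2 A549 libraries held identical values.

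Genes that reached 1 TPM in 4 or more of the 12 libraries of a cell line were scaled between libraries by a trimmed mean of log ratios (30% of ratios and 5% of abundances trimmed) and tested as log2(TPM + 0.1) with limma 3.58.1 in R 4.3.3, all 12 libraries in 1 fit, with Benjamini-Hochberg adjustment. Printed TPM are as deposited, whereas the fold change is on the log2(TPM + 0.1) scale, so a ratio of means can differ from it. That scale understates changes of low genes. Where a control library was at 0, the fold change can exceed the ratio of means, as for HIST2H2AA4 and HIST3H2A. A call required a log2 fold change beyond 1 in either direction at an adjusted p below 0.05. Tested on simulated libraries of 15722 genes, the fit recovered 71.5% of 200 genes changed 4-fold between TRA2A/B DKD and Control KD, with 4 false calls. Of the 200, 187 passed the filter. The simulated libraries had normal noise, independent between genes, and no outlying library, so these rates need not hold for the data.

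Genes were matched to Gencode v44 by symbol (35404 of 55906 names), which gave type and hg38 positions. Named genes were TRA2A and TRA2B, the 12 largest rises and falls and the 6 most abundant of each among called protein-coding genes without overlap between groups and with at least 10 TPM, and up to 3 called members per direction (or, with fewer than 2 called, the 2 most abundant) of each of 40 gene lists. Genes of the S phase and G2/M lists of Seurat 5.3.0 and of a p53 list were left out. Other genes are named only to complete a list, and 2 genes that the rule names are not reported here. Of the list genes, 14 were matched through an older symbol and 3 were not analysed here. The members and lists were chosen with earlier results of these data known. Alternatives were pseudocounts of 0.5 and 1, other filters, other scaling, a replicate block, 2-group fits and leaving out each library, and removal of trends with transcript length and GC content was added after the data were seen.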

Additional observations from a re-analysis of the deposited data

Results flagged for a closer look

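The double knockdown moved 3 of the named genes in opposite directions in A549 and NCI-H23, with every TRA2A/B DKD library on the far side of every control library in its cell line. The difference between the cell lines was not tested. TNFAIP3 had a log2 fold change of 2.69 in A549, where its mean went from 4.68 to 32.1 TPM, and of -1.55 in NCI-H23, where it went from 63.0 to 23.9 TPM (3 libraries in each group). MYL9 had 1.28 in A549, from 2.85 to 7.34 TPM, and -1.23 in NCI-H23, from 83.8 to 39.7 TPM, and its A549 call was lost without control replicate 3 (0.94). BIRC2 had 1.10 in A549, from 21.6 to 49.1 TPM, and -0.40 in NCI-H23, from 54.6 to 46.1 TPM. In NCI-H23 control libraries the level of each gene was above its level in A549 control libraries, in tables that were normalized separately.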

How the results depend on the processing

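Of 161 named genes other than TRA2A and TRA2B, no called gene turned direction under any alternative, 36 lost their call under at least 1, and 9 of 2386 recomputed values changed sign, all of uncalled genes. These were SRSF3 (0.028) and RBM8A (0.044) after quantile normalization, PSME2 (-0.17) and CD63 (-0.15) with length and GC trends removed, and values with 1 library left out, which ranged from -0.42 to 0.044 for SRSF3, from -0.36 to 0.073 for RBM8A, from -0.31 to 0.36 for PSME2, from -0.085 to 0.48 for TIMP1 and from -0.17 to 0.18 for CD63. Leaving out control replicate 3 took the call from 23 named genes, and fitting only the groups compared from 20. Without a minimum fold change, 5023 genes differed from control (2343 upward and 2680 downward), 2417 in the non-additive term, 4742 from TRA2A KD and 3910 from TRA2B KD. A minimum of 5 TPM left 1310 calls against control (718 upward and 592 downward), from fewer genes tested. Leaving out 1 library at a time gave 1612 to 2391 calls against control, 887 to 1740 in the non-additive term, 1517 to 1774 against TRA2A KD and 1122 to 1213 against TRA2B KD. Without control replicate 3 there were 2083 calls, 1619 of them shared with the 2099 of all libraries. With 1 library left out, the log2 fold change of TRA2A ranged from -2.97 to -2.84 and that of TRA2B from -2.80 to -2.53. Same-numbered control and TRA2A/B DKD libraries deviated from their group means with correlations of -0.02, -0.08 and -0.15. With 3 libraries per group and control replicate 3 standing apart, these values cannot show whether replicate numbers pair the libraries. A replicate block gave 2075, 1087, 1807 and 1372 calls in the order above. Among named genes in NCI-H23, TRA2A and TRA2B included, 106 of 143 tested had an adjusted p under 0.05 in the A549 direction and 6 against it. The first count ranged from 97 to 110 over the alternatives and from 99 to 104 without 1 library. Of the 163 named genes 139 were called in A549, most of them chosen for that change. The share over all genes was not computed, so this count has no background. Of the counts of list members, 1099 recomputed values stayed within 1.5 times the original and 181 did not. Log2 fold changes across protein-coding genes had Spearman correlations of -0.0803 with transcript length and -0.114 with GC content (n = 12494 genes, which are not independent replicates).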
